A study of Mus musculus with 6 samples.

Results

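The mitosis and spindle checkpoint genes described here are a named list of 40 genes for entry into mitosis, the spindle and the kinetochore, drawn up by gene name with earlier results of these data known, and all 40 were found among the 35275 Ensembl gene identifiers of the table. Kinesin motors were left out by the list's definition, although Cenpe, which is on it, encodes a kinetochore motor of the kinesin family. Each of the 40 had a mean of at least 1 FPKM (fragments per kilobase of gene, corrected for the size of the library, the deposited unit) over the 6 libraries, so each passed the filter on low values and was tested.

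The libraries came from keratinocytes, the main cells of the epidermis, of CD1 IGS mouse embryos at E16.5 (embryonic day). Dams labelled K10-rtTA;TRE-H2B-GFP;TRE-Spastin were given doxycycline from E14.5, and cells of the back skin epidermis were sorted for H2B-GFP, a green fluorescent histone. There were 3 libraries of the genotype labelled control and 3 labelled K10rtTA;TREspastin (K10-spastin below). In K10-spastin the keratin 10 promoter, which is active in suprabasal cells, drives rtTA, a doxycycline-dependent activator that switches on spastin, an enzyme that severs microtubules. The sources used here do not give the transgenes of the control embryos or the number of embryos in a library. The labels call the RNA samples independent, and a p-value here reflects the spread among them.

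The sorted cells carried Krt10, the marker of their label, and also markers of basal cells. Krt10, the keratin of suprabasal cells, ranged from 23698 to 32513 FPKM in control and from 13075 to 17318 FPKM in K10-spastin, where it was lower (log2 change -0.81 ± 0.20, limma adjusted p = 0.0438). The 12 markers of basal cells summed to 4193 to 7313 FPKM in control and to 2547 to 4807 FPKM in K10-spastin. The 5 endothelial markers summed to at most 0.361 FPKM in any library and the 6 leukocyte markers to at most 2.50 FPKM. The step between low values gave a depth of 16000000 to 22500000 fragments per library. Correlations of log2 values across genes were 0.965 to 0.990 between control libraries and 0.943 to 0.968 between K10-spastin libraries. Over all 11071 genes tested, the median gene of K10-spastin 1 lay at -0.30 on the log2 scale from its control mean, and the medians of K10-spastin 2 and 3 lay at 0.041 and -0.024.

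As background, a cell enters mitosis when cyclin B activates the kinase CDK1. The spindle checkpoint then holds the cell until every kinetochore is attached to spindle microtubules, after which the anaphase-promoting complex destroys securin and cyclin B. Transcripts of most of these genes rise late in the cell cycle and are low in cells that have left it. In embryonic epidermis divisions take place mainly in the basal layer, with some in suprabasal cells while the tissue stratifies. In bulk libraries such as these, a smaller share of cycling cells and less of a transcript in each cycling cell cannot be told apart.

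Many mitotic genes share promoter motifs, and the 150 bases before the start of 6 members are given to show them. The sequences are RefSeq's for the GRCm38.p6 build, 5′ to 3′ on the gene's strand, and they were not measured in these libraries. Capitals mark 2 motifs on either strand, CCAAT, the box bound by NF-Y, and TTTGAA, the letters of the cell cycle genes homology region (CHR), which is bound by MuvB complexes. On the opposite strand they read ATTGG and TTCAAA. No match of one motif overlapped a match of the other in these stretches. Cdc20 was the most abundant member, Cdk1 and Ccnb1 encode the kinase and cyclin of mitotic entry, Top2a and Ube2c are abundant members of other roles, and Ttk was the member whose levels departed from the others.

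Cdc20 at chr4:118437344-118437493, minus strand: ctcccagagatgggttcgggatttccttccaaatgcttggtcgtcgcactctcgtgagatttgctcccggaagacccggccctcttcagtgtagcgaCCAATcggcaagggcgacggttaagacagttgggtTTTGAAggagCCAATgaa
Cdk1 at chr10:69352913-69353062, minus strand: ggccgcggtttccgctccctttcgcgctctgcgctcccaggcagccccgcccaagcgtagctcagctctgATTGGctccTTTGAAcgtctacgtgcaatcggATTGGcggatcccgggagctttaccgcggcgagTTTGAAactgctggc
Ube2c at chr2:164769779-164769928, plus strand: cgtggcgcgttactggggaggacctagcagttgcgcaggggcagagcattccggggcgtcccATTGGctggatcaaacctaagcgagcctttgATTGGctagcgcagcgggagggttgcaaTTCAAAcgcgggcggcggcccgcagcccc
Top2a at chr11:99024190-99024339, minus strand: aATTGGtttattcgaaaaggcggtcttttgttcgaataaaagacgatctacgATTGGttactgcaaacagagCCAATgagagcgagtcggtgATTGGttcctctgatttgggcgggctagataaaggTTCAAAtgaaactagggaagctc
Ccnb1 at chr13:100786487-100786636, minus strand: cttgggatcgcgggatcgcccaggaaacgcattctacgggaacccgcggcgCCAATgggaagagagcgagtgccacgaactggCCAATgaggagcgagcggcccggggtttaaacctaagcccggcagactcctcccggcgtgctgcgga
Ttk at chr9:83834539-83834688, plus strand: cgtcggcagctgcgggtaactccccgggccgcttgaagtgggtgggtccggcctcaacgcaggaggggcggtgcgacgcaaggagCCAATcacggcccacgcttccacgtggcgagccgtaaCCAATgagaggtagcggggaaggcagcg

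RefSeq promoter windows, 250 bases before to 50 after a start, were at hand for 33 of the 40 members. Of these, 23 genes (69.7%) held TTTGAA, against 20.2% of 27025 genes with a window. CCAAT was found in 26 of the 33 (78.8%), against 41.1% of all genes, and both motifs in 21 (63.6%), against 7.97%. In the stretches printed, the CHR letters of Cdc20 began 18 bases before the start, those of Ube2c 29 bases and those of Top2a 23 bases, and Cdk1 held them at 71 and 15 bases. The stretches of Ccnb1 and Ttk held 2 CCAAT boxes each and no TTTGAA, but the window of Ttk held TTTGAA 7 bases after the start and counts among the 23. In 25 of the members' 36 windows the bases just after the start were found in a GENCODE M21 transcript of the same gene. The starts of the other windows are less certain, and those windows were kept in the counts. A match of letters is a description of the sequence only.

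Spast, the induced gene (ENSMUSG00000024068), was read first. It measured 21.2, 24.0 and 21.4 FPKM in controls 1 to 3, against 1431, 639 and 213 FPKM over K10-spastin 1 to 3. All 3 K10-spastin libraries lay above all controls, and they differed from each other by more than the controls did. The log2 change was 4.65 ± 0.60 (SE; limma adjusted p = 0.00865), on the log2(FPKM + 1) scale that is used for every change below and understates the change of low genes.

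The members were tight in the controls and split in K10-spastin. Their summed level was 559, 542 and 536 FPKM in controls 1 to 3, and 347, 1233 and 878 FPKM in K10-spastin 1 to 3. The library with the most Spast thus had the lowest summed level of all 6, and the other K10-spastin libraries had the highest. With 3 libraries in the group, no relation between Spast and the members can be tested.

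**Figure D1:**
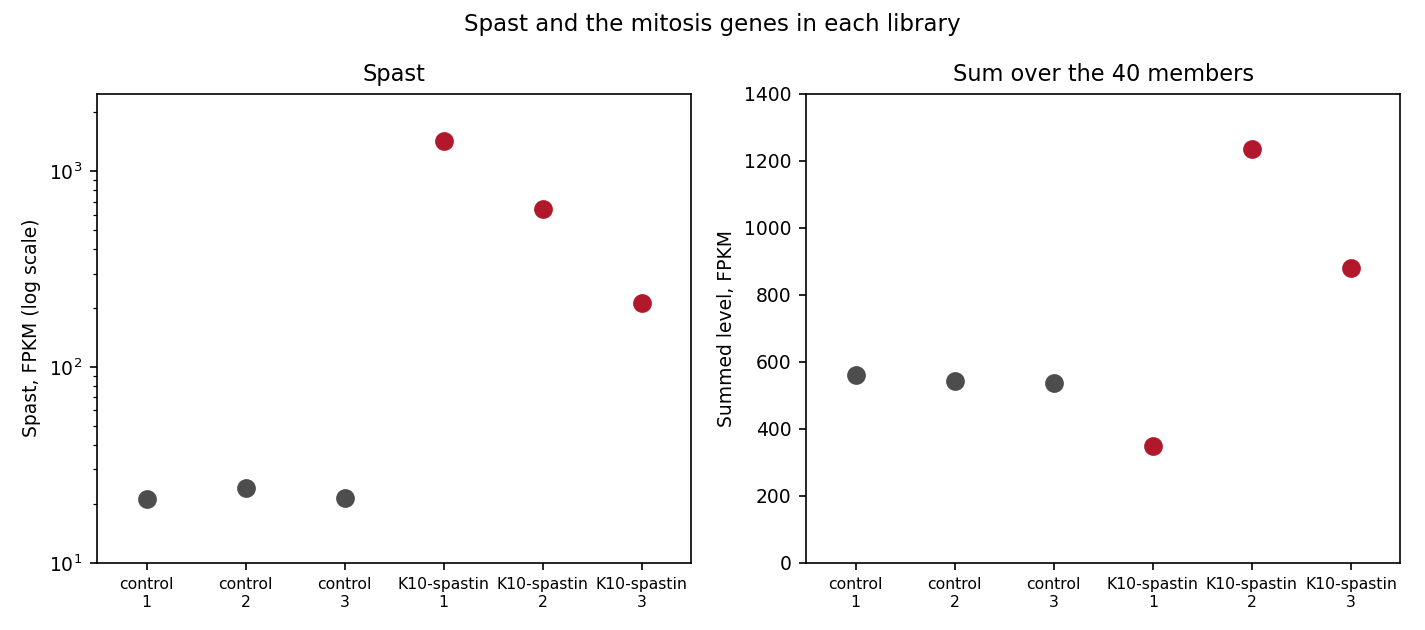
Level of Spast (left, FPKM on a log axis) and summed level of the 40 members (right, FPKM) in each library, controls in grey and K10-spastin in red. K10-spastin 1 has the highest Spast, 1431 FPKM, and the lowest sum, 347 FPKM, while K10-spastin 2 and 3 have sums of 1233 and 878 FPKM.

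The split ran through nearly the whole list. K10-spastin 2 lay above all 3 controls in 39 of 40 members, against 39.8% of all genes tested, and K10-spastin 3 did so in 36 members, against 31.6%. K10-spastin 1 lay below all 3 controls in 37 members, against 58.1%, and above them in 1, Hmmr, against 23.9%. Below all controls lay 1 member in K10-spastin 2, Ttk, against 34.2%, and none in K10-spastin 3, against 37.2%. The count for K10-spastin 1 depended on scaling, with 20 members below and 5 above under median-of-ratios scaling and 23 below and 5 above under quantile normalization, while the counts for K10-spastin 2 and 3 were 38 to 39 and 36 under both. As deposited, 33 of the 40 members had K10-spastin 1 below and K10-spastin 2 and 3 above every control, against 6.1% of all genes. By the counts for K10-spastin 1, no more than 20 could under median-of-ratios scaling and no more than 23 under quantile normalization. The order within the group was K10-spastin 2, then 3, then 1 in 39 members, against 39.7% of all genes, and Ttk had the order 3, 2, 1, against 23.9%. No member followed the order of Spast, 1 over 2 over 3, which 11.2% of all genes did.

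The departures were then read as folds over the control mean. K10-spastin 2 lay at a median of 2.24-fold the control mean over the members (0.754-fold for Ttk to 3.77-fold for Hmmr), and K10-spastin 3 at a median of 1.62-fold (0.829-fold for Ttk to 2.40-fold for Nuf2). K10-spastin 1 lay at a median of 0.648-fold the control mean (0.273-fold for Ttk to 1.34-fold for Hmmr). On the log2 scale the median member of K10-spastin 1 lay at -0.55 from its control mean as deposited, at -0.20 under median-of-ratios scaling and at -0.26 under quantile normalization, and the median of all genes lay at -0.30, 0.042 and -0.082. From K10-spastin 1 to 2 every member was higher, by 2.04-fold for Bub3 to 5.51-fold for Foxm1. The SD of log2 values over the 3 libraries was larger in K10-spastin than in control for 40 of 40 members, against 73.8% of all genes. The median SD of the members was 0.15 in control and 0.85 in K10-spastin, while that of all genes tested was 0.16 and 0.29. These SDs were taken on values as deposited only. Under median-of-ratios scaling the member medians over K10-spastin 1 to 3 were -0.20, 0.99 and 0.69. They lay closer together than the -0.55, 1.00 and 0.63 as deposited.

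**Figure D2:**
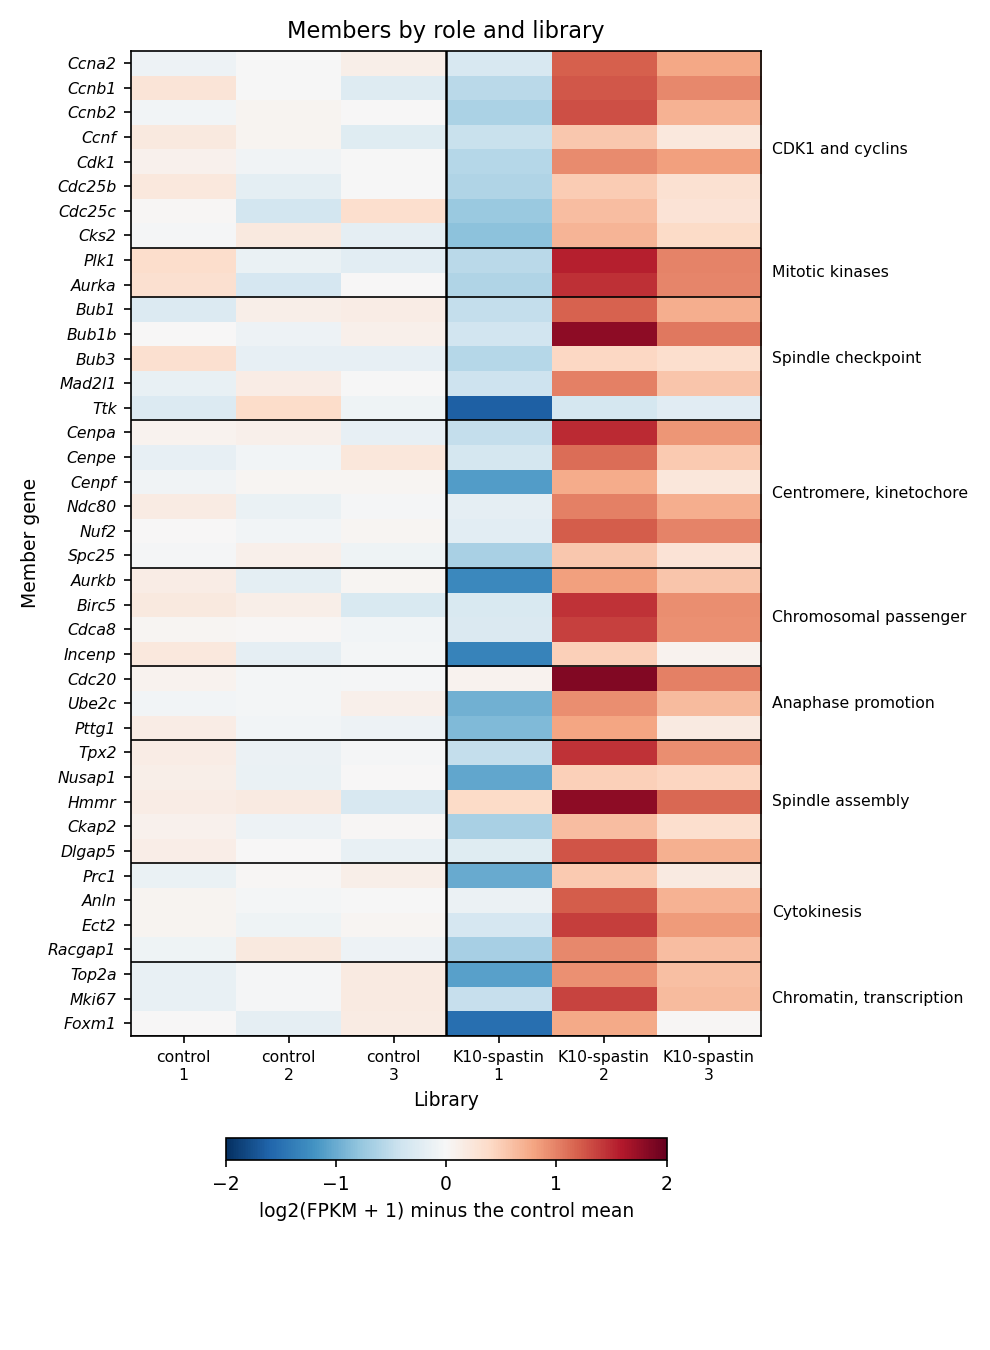
log2(FPKM + 1) of each member minus its control mean, with libraries in columns and the 40 members in rows by role, blue below and red above the control mean. K10-spastin 1 is mostly blue, K10-spastin 2 and 3 are mostly red, and Ttk is the row that is blue in all 3.

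The comparison of the groups asks whether these transcripts differ in the sorted cells after spastin induction. No member was called in either direction by limma at an adjusted p under 0.05, where 5.14% of all genes were called higher and 5.9% lower. At an unadjusted p under 0.05, 2 members were higher, Cdc20 and Hmmr, and none was lower, against 12.8% and 18.7% of all genes. The median change of the members was 0.42, beside -0.089 over all genes, and 34 of 40 had a change above 0, against 41.6% of all genes. Under median-of-ratios scaling and quantile normalization the median of the members was 0.53 and 0.51. The median SE of the members was 0.39, beside 0.21 over all genes, and the 95% interval of a member reached 0.67 to 1.21 to either side of its change. Changes of up to about those sizes could therefore not be told from none. Larger ones could also be missed, because the intervals are not adjusted for the number of genes. Cdc20 and Hmmr had intervals above 0 and were still not called. The lack of calls does not show that the groups were alike.

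Without K10-spastin 1, 24 of 40 members were higher by limma at an adjusted p under 0.05 and none was lower, where 6.18% of all genes were higher and 6.3% lower. The median change was then 0.84. After median-of-ratios scaling of the same 5 libraries 25 members were higher and none lower (8.28% and 5.99% of all genes), and after quantile normalization 25 were higher and none lower (5.56% and 7.16%). The gene that joined the 24 in both was Mki67. With all 6 libraries kept and weighted by their fit, 20 members were higher and none lower (13.9% and 16.0% of all genes). K10-spastin 1 had the smallest weight there, 0.165, so that setting comes close to leaving it out and is not separate support. Without K10-spastin 2 no member was called (3.25% of all genes higher, 3.13% lower) and the median change was 0.080. Without K10-spastin 3 none was called (5.99% higher, 6.38% lower) and it was 0.31. Leaving out control 1, 2 or 3 also gave no member called, where 1.99%, 1.24% and 1.04% of all genes were higher and 2.02%, 0.606% and 0.282% lower, shares so small that none of 40 is near the background. Whether the members differed between the groups thus rested on 1 library, and changes below are given over all 6 libraries and without K10-spastin 1. Leaving it out removes the library where the members were mostly low and Spast was highest. Calls without it therefore depend on the members' own values. They describe the other 5 libraries and are not evidence of a difference between the groups. This holds for every gene below that is said to be called, or not called, without K10-spastin 1.

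**Figure D3:**
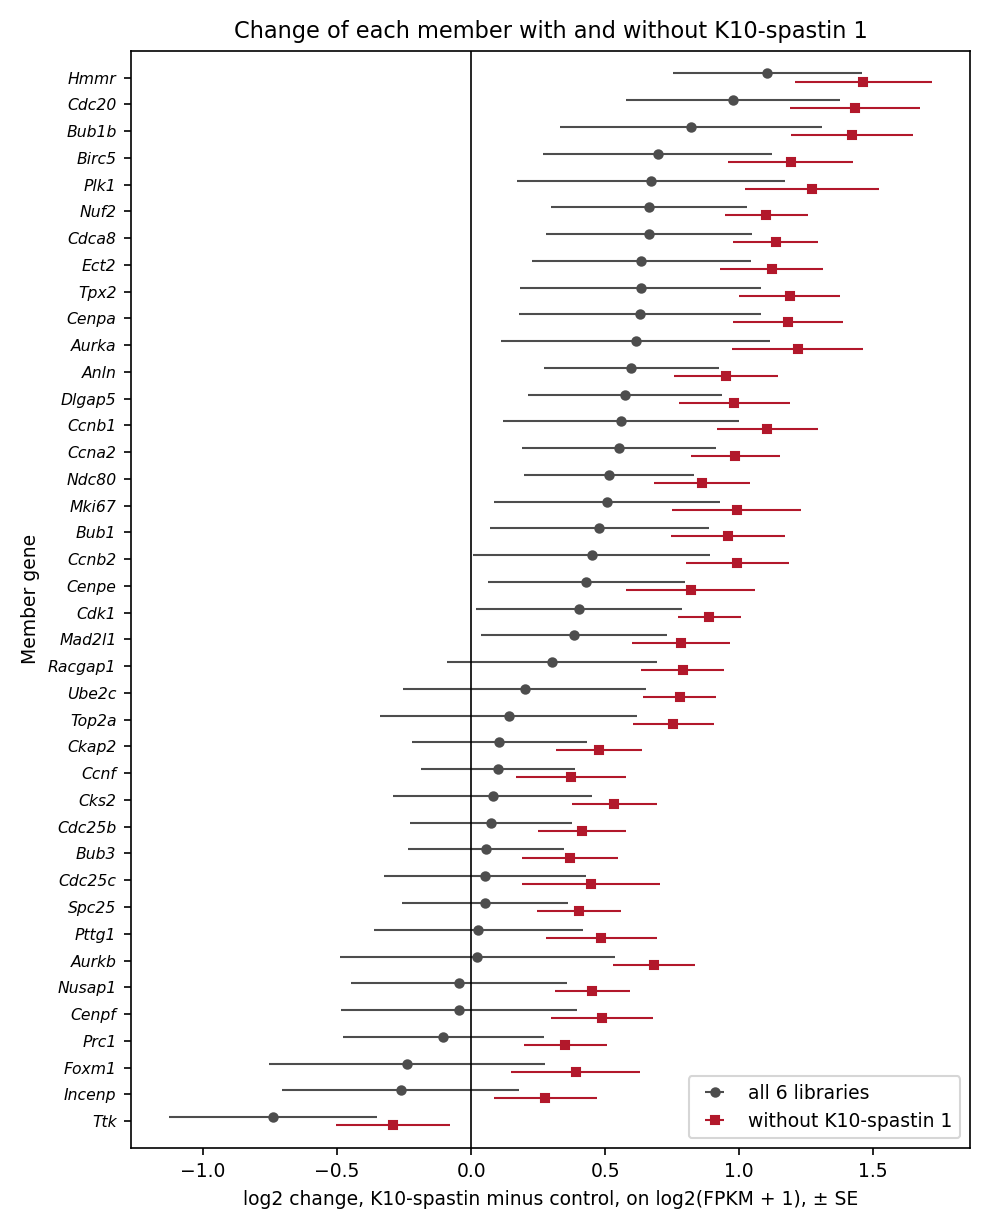
log2 change of each member, K10-spastin minus control, with its SE, from all 6 libraries (grey circles) and without K10-spastin 1 (red squares). With all libraries the changes run from -0.74 for Ttk to 1.10 for Hmmr with wide errors, and without K10-spastin 1 the change of every member but Ttk is above 0.

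Genes of CDK1 and its cyclins came first in the order of mitosis. Ccnb1, cyclin B1, measured 21.3, 17.5 and 14.4 FPKM in controls 1 to 3, against 11.8, 42.8 and 35.3 FPKM over K10-spastin 1 to 3. Its change was 0.56 ± 0.44 (limma adjusted p = 0.423), and without K10-spastin 1 it was 1.10 ± 0.19 (limma adjusted p = 0.0236). Cks2, a small subunit that binds CDK1, measured 32.1, 37.5 and 28.7 FPKM in the controls, against 17.9, 53.0 and 42.7 FPKM over K10-spastin. The Cks2 values rested on 499, 415 and 329 fragments in the controls and 215, 718 and 513 in K10-spastin. The change of Cks2 was 0.080 ± 0.37 (limma adjusted p = 0.905) and 0.53 ± 0.16 without K10-spastin 1 (limma adjusted p = 0.0775). In both genes the groups overlapped, with K10-spastin 1 below every control and K10-spastin 2 and 3 above. Cdk1 itself had a change of 0.40 ± 0.38 (limma adjusted p = 0.511) and of 0.89 ± 0.12 without K10-spastin 1 (limma adjusted p = 0.0144). Of the 8 genes of this role none was called with all 6 libraries. Ccna2, Ccnb1, Ccnb2 and Cdk1 were called higher without K10-spastin 1. Ccnf, the phosphatases Cdc25b and Cdc25c, which activate CDK1, and Cks2 were not. That sorting, here and in the roles below, describes 5 libraries only. Cdc25c was the lowest member, with 1.42 to 2.93 FPKM over the controls and 0.861, 3.77 and 2.76 FPKM over K10-spastin 1 to 3.

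The mitotic kinases Plk1, polo-like kinase 1, and Aurka, Aurora A, which matures the centrosome, had wide splits. Plk1 measured 12.2, 8.37 and 7.87 FPKM in controls 1 to 3, against 6.12, 29.3 and 19.4 FPKM over K10-spastin 1 to 3. Its change was 0.67 ± 0.50 (limma adjusted p = 0.397) and 1.27 ± 0.25 without K10-spastin 1 (limma adjusted p = 0.0319). Aurka measured 10.5, 6.30 and 8.18 FPKM in the controls, against 5.07, 24.2 and 17.1 FPKM over K10-spastin. Its change was 0.61 ± 0.50 (limma adjusted p = 0.440) and 1.22 ± 0.24 without K10-spastin 1 (limma adjusted p = 0.0333). In both genes control 1 was the highest control and still lay below K10-spastin 2 and 3.

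Among spindle checkpoint genes, Bub1b and Bub3 were the most abundant. Bub1b, which encodes the checkpoint protein BubR1, measured 18.2, 16.7 and 19.3 FPKM in controls 1 to 3, against 13.6, 64.9 and 38.4 FPKM over K10-spastin 1 to 3. Its change was 0.82 ± 0.49 (limma adjusted p = 0.292) and 1.42 ± 0.23 without K10-spastin 1 (limma adjusted p = 0.0205). Bub3, its binding partner, measured 29.2, 20.7 and 20.6 FPKM in the controls, against 15.3, 31.2 and 29.4 FPKM over K10-spastin, with a change of 0.056 ± 0.29 (limma adjusted p = 0.916) and of 0.37 ± 0.18 without K10-spastin 1 (limma adjusted p = 0.205). Bub1, a kinase of the checkpoint, and Mad2l1, which encodes the Mad2 protein that restrains Cdc20, were called higher without K10-spastin 1, at 0.96 ± 0.21 and 0.78 ± 0.18 (limma adjusted p = 0.0417 and 0.0472).

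Ttk, which encodes the Mps1 kinase that starts checkpoint signalling, went against the other members and was chosen for description after its values were seen. It measured 12.4, 19.9 and 14.2 FPKM in controls 1 to 3, against 4.23, 11.7 and 12.8 FPKM over K10-spastin 1 to 3. K10-spastin 1 and 2 lay below all controls, and K10-spastin 3 lay just above control 1. Its change of -0.74 ± 0.39 did not pass (limma adjusted p = 0.236, and 0.152 to 0.502 in 18 other settings). Ttk was the only member that was not above the controls in K10-spastin 2 and the only one with a change below 0 without K10-spastin 1, at -0.29 ± 0.21. No other annotated gene overlaps its exons.

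Genes of the centromere and kinetochore split in the same order. Cenpa, the histone variant that marks centromeres, measured 22.0, 22.6 and 18.5 FPKM in controls 1 to 3, against 14.7, 60.4 and 39.3 FPKM over K10-spastin 1 to 3. Its change was 0.63 ± 0.45 (limma adjusted p = 0.380) and 1.18 ± 0.20 without K10-spastin 1 (limma adjusted p = 0.0244). Cenpf, a large kinetochore protein, measured 5.90, 6.40 and 6.38 FPKM in the controls, against 2.34, 11.1 and 7.48 FPKM over K10-spastin. Its change was -0.046 ± 0.44 (limma adjusted p = 0.955), and its sign turned under both scalings and without K10-spastin 1 (0.49 ± 0.19, limma adjusted p = 0.135). Of the NDC80 complex, which joins the kinetochore to microtubules, Ndc80 and Nuf2 were called higher without K10-spastin 1, at 0.86 ± 0.18 and 1.10 ± 0.15 (limma adjusted p = 0.0366 and 0.0152). Spc25 of the same complex was not, at 0.40 ± 0.16 (limma adjusted p = 0.136), nor was the motor Cenpe, at 0.82 ± 0.24 (limma adjusted p = 0.0757).

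The chromosomal passenger complex, which corrects wrong attachments, had unequal levels in K10-spastin 1. Aurkb, its kinase Aurora B, measured 20.6, 16.1 and 19.1 FPKM in controls 1 to 3, against 6.96, 33.3 and 27.6 FPKM over K10-spastin 1 to 3. Its change was 0.023 ± 0.51 (limma adjusted p = 0.984) and 0.68 ± 0.15 without K10-spastin 1 (limma adjusted p = 0.0437). Cdca8, the subunit borealin, measured 18.2, 18.0 and 17.1 FPKM in the controls, against 14.4, 47.2 and 34.3 FPKM over K10-spastin, with a change of 0.66 ± 0.38 (limma adjusted p = 0.281) and of 1.14 ± 0.16 without K10-spastin 1 (limma adjusted p = 0.0151). Relative to the control mean, K10-spastin 1 was at 0.374-fold for Aurkb and 0.329-fold for the scaffold Incenp, but at 0.811-fold for Cdca8 and 0.773-fold for Birc5, which encodes survivin. Birc5 was called higher without K10-spastin 1 (1.19 ± 0.23, limma adjusted p = 0.0313) and Incenp was not (0.28 ± 0.19, limma adjusted p = 0.358).

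Cdc20, which activates the anaphase-promoting complex, was the most abundant member by FPKM. It measured 57.4, 53.4 and 53.5 FPKM in controls 1 to 3, against 57.3, 200.4 and 111 FPKM over K10-spastin 1 to 3. K10-spastin 1 lay within the control range and the other 2 libraries far above it. Its change was 0.98 ± 0.40 (limma adjusted p = 0.144) and 1.43 ± 0.24 without K10-spastin 1 (limma adjusted p = 0.0234). Ube2c, the ubiquitin-conjugating enzyme of the complex, measured 17.6, 17.9 and 19.7 FPKM in the controls, against 8.98, 35.9 and 28.9 FPKM over K10-spastin. Its change was 0.20 ± 0.45 (limma adjusted p = 0.798) and 0.78 ± 0.14 without K10-spastin 1 (limma adjusted p = 0.0252). Pttg1, securin, which the complex destroys at anaphase, was not called without K10-spastin 1 (0.49 ± 0.21, limma adjusted p = 0.160).

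Hmmr, a spindle protein also known as a hyaluronan receptor, was the only member whose groups did not overlap, against 15.6% of all genes that were higher without overlap and 24.8% that were lower. It measured 7.08, 7.25 and 4.86 FPKM in controls 1 to 3, against 8.54, 24.1 and 15.2 FPKM over K10-spastin 1 to 3, so that even K10-spastin 1 lay above every control. Its change of 1.10 ± 0.35 had the smallest adjusted p of the list (limma adjusted p = 0.0821) and passed under median-of-ratios scaling (0.0396) and quantile normalization (0.0399), where it was the one member called, against 7.19% and 5.48% of all genes higher (5.92% and 8.02% lower). Stretches of Hmmr of 200 bases or more recur at 90% identity or above in transcripts of 26 other genes, so its values are uncertain where reads could be split. Tpx2, which activates Aurora A on the spindle, measured 13.4, 10.9 and 11.7 FPKM in the controls, against 8.29, 34.2 and 23.7 FPKM over K10-spastin. Its change was 0.63 ± 0.45 (limma adjusted p = 0.375) and 1.19 ± 0.19 without K10-spastin 1 (limma adjusted p = 0.0203). Of the other spindle genes, Dlgap5 was called higher without K10-spastin 1, and Nusap1 and Ckap2 were not (limma adjusted p = 0.0831 and 0.0989).

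Genes of cytokinesis, the final division of the cell body, were Racgap1, Prc1, Anln and Ect2. Racgap1, a subunit of centralspindlin, measured 31.2, 37.9 and 30.8 FPKM in controls 1 to 3, against 20.5, 65.4 and 51.6 FPKM over K10-spastin 1 to 3. Its change was 0.30 ± 0.39 (limma adjusted p = 0.640) and 0.79 ± 0.16 without K10-spastin 1 (limma adjusted p = 0.0318). Prc1, which bundles microtubules of the spindle midzone, measured 12.5, 14.1 and 15.1 FPKM in the controls, against 6.37, 20.3 and 15.9 FPKM over K10-spastin, with a change of -0.10 ± 0.37 (limma adjusted p = 0.879) whose sign turned under median-of-ratios scaling and without K10-spastin 1 (0.35 ± 0.16, limma adjusted p = 0.177). K10-spastin 3 was thus close to the controls in Prc1 but not in Racgap1. Anln, the scaffold anillin, and Ect2, which activates RhoA at the cleavage furrow, were called higher without K10-spastin 1, at 0.95 ± 0.19 and 1.12 ± 0.19 (limma adjusted p = 0.0346 and 0.0239).

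The markers of proliferation and their regulator followed. Top2a, topoisomerase II alpha, measured 41.8, 45.6 and 52.9 FPKM in controls 1 to 3, against 21.4, 88.6 and 70.8 FPKM over K10-spastin 1 to 3. Its change was 0.14 ± 0.48 (limma adjusted p = 0.871) and 0.75 ± 0.15 without K10-spastin 1 (limma adjusted p = 0.0336). Mki67, which encodes the Ki-67 antigen, measured 6.53, 7.19 and 8.47 FPKM in the controls, against 5.08, 20.2 and 12.0 FPKM over K10-spastin. Its change was 0.51 ± 0.42 (limma adjusted p = 0.448) and 0.99 ± 0.24 without K10-spastin 1, where it just missed the threshold (limma adjusted p = 0.0510). Foxm1, a transcription factor that activates many of these genes, measured 17.0, 14.8 and 19.0 FPKM in the controls, against 5.31, 29.2 and 17.1 FPKM over K10-spastin. Its change was -0.24 ± 0.52 (limma adjusted p = 0.787), and its sign turned without K10-spastin 1 (0.39 ± 0.24, limma adjusted p = 0.304). Only K10-spastin 2 lay above the controls.

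Other lists of the pathway were read from the same fits, in which 5.14% of all genes were higher and 5.9% lower with all libraries, and 6.18% higher and 6.3% lower without K10-spastin 1. Of 12 mitotic kinesins none was called with all libraries and 5 were higher without K10-spastin 1, and their medians in K10-spastin 1, 2 and 3 lay at -0.50, 0.98 and 0.55 from the control mean, beside -0.55, 1.00 and 0.63 for the 40 members and -0.30, 0.041 and -0.024 for all genes. Under median-of-ratios scaling the K10-spastin 1 median was -0.23 for the kinesins, -0.30 for the replication genes and -0.13 for the anaphase-promoting complex genes. Of 30 tested genes of DNA replication and the G1/S transition none was called with all libraries and 2 (a share near that of all genes) were higher without K10-spastin 1, with medians of -0.56, 0.64 and 0.19. Of 16 tested condensin, cohesin and separase genes none was called with all libraries, and 4 were higher and 1 lower without K10-spastin 1. Of 11 tested further regulators of mitotic entry none was called with all libraries and 4 were higher without K10-spastin 1. Of 17 core subunits and regulators of the anaphase-promoting complex none was called in either fit, with medians of -0.39, 0.088 and 0.076. Of 11 genes of MuvB, DREAM and B-Myb, the complexes that read the CHR, none was called with all libraries and 1 was lower without K10-spastin 1.

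**Figure D4:**
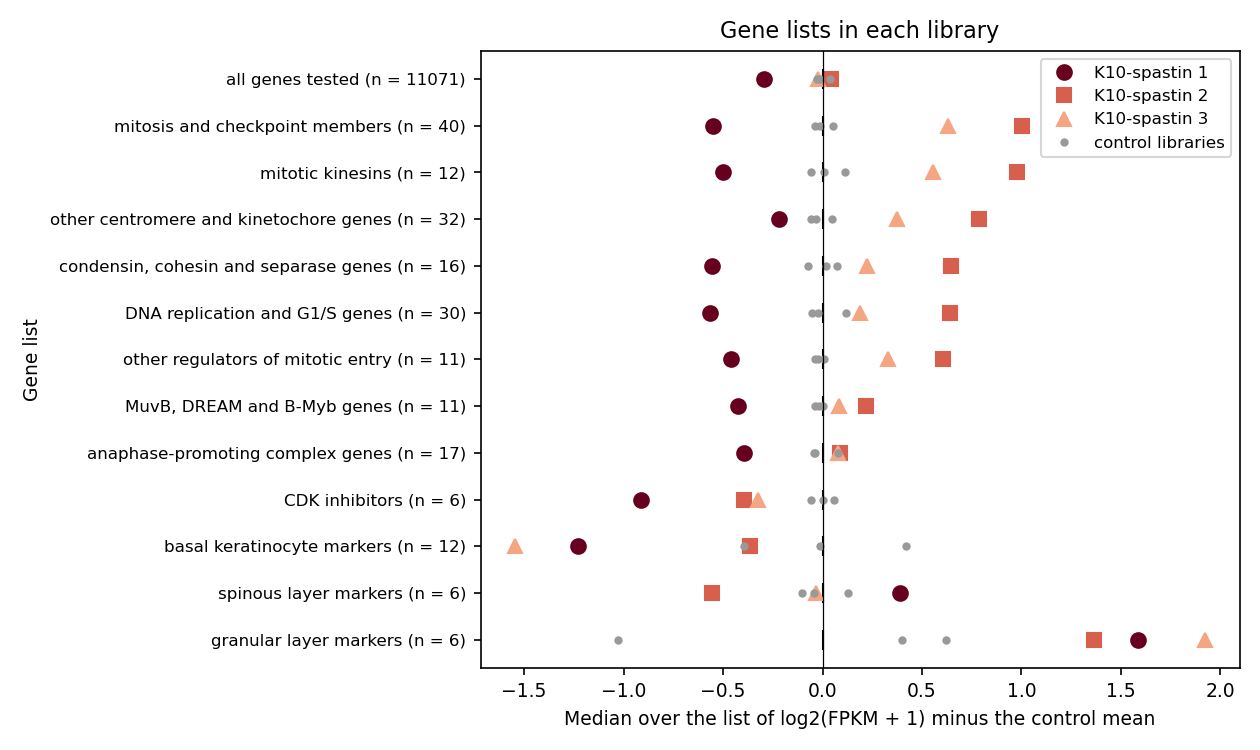
Median over each gene list of log2(FPKM + 1) minus the control mean (x axis), with 1 symbol per library, grey for controls, and the number of tested genes after each list's name. The 40 members reach -0.55, 1.00 and 0.63 in K10-spastin 1 to 3, the anaphase-promoting complex genes reach -0.39, 0.088 and 0.076, and the basal markers lie below the control mean in all 3.

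In 2 of these lists a gene passed with all 6 libraries. Of 32 further centromere and kinetochore genes 4 were higher without K10-spastin 1, against 6.18% of all genes. With all libraries 1 of the 32 rose, a share near the 5.14% of all genes. That gene was Zwint, which recruits checkpoint proteins to the kinetochore. It measured 32.4, 29.6 and 31.3 FPKM in controls 1 to 3, against 56.4, 70.8 and 44.3 FPKM over K10-spastin 1 to 3. All K10-spastin libraries lay above the controls, K10-spastin 1 included. Its change was 0.83 ± 0.18 (limma adjusted p = 0.0337) and 0.83 ± 0.20 without K10-spastin 1 (limma adjusted p = 0.0516), and the call was lost in 8 of 18 other settings, among them without any one of the controls, K10-spastin 1 or K10-spastin 2 (limma adjusted p up to 0.123). Of 6 tested CDK inhibitors 1 fell, against 5.9% of all genes. That gene was Cdkn1c, which encodes p57 and restrains the cell cycle in differentiating cells. It measured 30.9, 33.0 and 30.6 FPKM in the controls, against 2.26, 4.73 and 11.6 FPKM over K10-spastin. The order within K10-spastin was the reverse of that of Spast, as in 23.9% of all genes. Its change was -2.40 ± 0.44 (limma adjusted p = 0.0203) and -1.93 ± 0.32 without K10-spastin 1 (limma adjusted p = 0.0229), and the call was lost when a control or K10-spastin 2 was left out, whichever control it was (limma adjusted p up to 0.0823). Cdkn1a, the p53-induced inhibitor called p21, measured 483, 597 and 612 FPKM in the controls, against 802, 514 and 535 FPKM over K10-spastin (limma adjusted p = 0.751).

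Markers of the epidermal layers and of other cells were set beside the members. The calls are from all 6 libraries, where 5.14% of all genes were higher and 5.9% lower. Without K10-spastin 1, 4 basal markers and 1 spinous marker were lower and 2 granular markers were higher. No fibroblast marker was called there, and 6.18% of all genes were higher and 6.3% lower. The 12 basal markers summed to 4193 to 7313 FPKM in control and to 3984, 4807 and 2547 FPKM in K10-spastin 1 to 3, and 3 of the 12 fell, Krt15, Itgb1 and Dst. Krt15, a keratin of basal cells, measured 2095, 1237 and 1835 FPKM in the controls, against 70.0, 449 and 261 FPKM over K10-spastin (-3.05 ± 0.62, limma adjusted p = 0.0269). In K10-spastin 2 and 3, where the members were high, the median basal marker lay at -0.36 and -1.55 from its control mean, and in K10-spastin 1, where they were low, at -1.23. The 6 spinous markers, the layer in which the keratin 10 promoter is active, summed to 51688 to 67976 FPKM in control and to 46232, 31269 and 42033 FPKM in K10-spastin 1 to 3. Of these only Krt10 passed, and the median spinous marker lay at 0.39, -0.55 and -0.032 from its control mean, or at 0.77, -0.56 and 0.031 under median-of-ratios scaling. Of the 6 tested granular markers 3 rose, Ivl, Tgm1 and Cdsn. The median granular marker lay at -1.03, 0.40 and 0.62 in controls 1 to 3, and at 1.59, 1.36 and 1.92 over K10-spastin. Their summed level was 1300, 5405 and 4806 FPKM in the controls, against 3675, 3535 and 15163 FPKM over K10-spastin 1 to 3. In that sum only K10-spastin 3 lay above the control range. The 7 dermal fibroblast markers summed to 6.44 to 42.3 FPKM in control and to 0.791 to 3.03 FPKM in K10-spastin, and the 6 melanocyte markers to 4.20 to 15.6 and to 1.91 to 23.8 FPKM. The 5 hair placode markers summed to 6.88 to 31.6 FPKM in control and to 22.0 to 56.0 FPKM in K10-spastin. Of the 2 tested, Lhx2 fell (-1.74 ± 0.43, limma adjusted p = 0.0450). Sox9 changed the other way and was not called, and the median change over both was -0.096. Without K10-spastin 1 neither Lhx2 nor Sox9 was called. Of the fibroblast markers Dcn fell and Twist2 was listed at 0 in all K10-spastin libraries, and of the leukocyte markers Cd207 and Cd3e were listed at 0 in all 6 libraries. The part of these cells in the members' levels was not tested.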

How the data were processed

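The authors deposited 1 table of FPKM, normalized for gene length and sequencing depth, with a column for each of the 6 libraries. The submitters' processing notes name CASAVA and TopHat2. The sources used here do not give the counter, annotation, strandedness or build. Symbols matched 34490 of 35275 identifiers. Depth was read from the commonest step of low values over 14953 genes with 1 transcript in GENCODE M21, where 90.5% to 91.5% of values up to 20 fragments were whole within 0.05.

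Genes averaging 1 FPKM or more were compared with limma 3.58.1 in R 4.3.3 (lmFit, eBayes with a trend) on log2(FPKM + 1), two-sided, with Benjamini-Hochberg adjustment over all 11071 genes. An exact permutation test of 3 against 3 cannot go below a two-sided p of 0.1. The script was tested on simulated data. The members and lists were chosen with earlier results of these data known.

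By plan, change, SE and adjusted p were given for Spast, called members, the 2 most abundant members of each of 9 roles and Mki67, and at most 4 called genes of a pathway list. Marker genes were planned as summed levels, and the changes of the called markers Krt10, Krt15 and Lhx2 were added outside that plan. Changes of further members are given where limma called them, or as the rest of their role, and were chosen after their values were seen. Replicate numbers were not used as a block. Alternatives were 16 planned settings and 2 chosen after seeing the data. Exons of 12 members overlap another gene's, and 19 have stretches found in other genes (BLAST 2.17.0, at least 90% identity over 200 bases), so their reads may be shared. Figures used matplotlib 3.10.9.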

Additional observations from a re-analysis of the deposited data

How the results depend on the processing

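The count of members called higher was 0 over all 6 libraries, 0 to 24 when 1 library was left out (24 without K10-spastin 1), 1 under each of median-of-ratios scaling and quantile normalization (Hmmr), and 20 with array weights, which gave K10-spastin 1 a weight of 0.165. It was 25 without K10-spastin 1 under each of both scalings, chosen after seeing the data. No member was called lower in any of the 18 settings. The median change of the members stayed between 0.080 and 0.87, and Spast was called in all 18. Over all genes, 569 were higher and 653 lower, against 319 and 348 with no filter, 414 lower at a minimum of 5 FPKM, 1535 and 1771 with array weights, 920 higher without K10-spastin 1 under median-of-ratios scaling, and 114 to 687 higher and 31 to 707 lower with 1 library left out. With the replicate number as a block, 274 and 218 genes and 0 members were called. The deviations of same-numbered libraries had correlations of -0.13, -0.38 and -0.05, so the numbers gave no sign of pairing.

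Some changes near 0 turned sign. Cenpf reached 0.066 and 0.10 under median-of-ratios and quantile scaling, 0.25 with array weights, and 0.52 and 0.50 under both scalings without K10-spastin 1. Prc1 reached 0.029 under median-of-ratios scaling, 0.15 with array weights, and 0.39 and 0.30 under both scalings without K10-spastin 1. Foxm1 reached 0.12 with array weights, and 0.43 and 0.33 under both scalings without K10-spastin 1. With 1 library left out, Cks2 ranged from -0.22 to 0.53, Bub3 from -0.12 to 0.37, Cenpf from -0.44 to 0.49, Aurkb from -0.37 to 0.68, Ube2c from -0.17 to 0.78, Prc1 from -0.41 to 0.35, Racgap1 from -0.024 to 0.79, Top2a from -0.25 to 0.75 and Foxm1 from -0.74 to 0.39. Beyond the library left out, the cause was not tested. Fits without a library have fewer samples, and 3 fragments in 1 kb were worth 0.133 to 0.187 FPKM, below every member's level.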
